A study of Mus musculus with 6 samples.

Results

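The enzymes that break down amino acids in the liver, together with those of the urea cycle, were taken as a set of 51 mouse genes listed by symbol. A gene's probes were found through the transcript accession each probe carries, and the brightest probe that passed a filter on dim spots stood for the gene. Of the 51 genes, 50 were measured, among 20658 features tested in all. Tdh, which encodes threonine dehydrogenase, had no probe that passed the filter. The list's Mut is named Mmut in RefSeq and below.

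The liver removes amino acids that are not needed for protein. Transaminases move their nitrogen onto glutamate, glutamate dehydrogenase and glutaminase release it as ammonia, and the urea cycle of periportal hepatocytes turns ammonia and aspartate into urea for the kidney. The remaining carbon skeletons enter gluconeogenesis, ketone body formation or the citric acid cycle. Glucagon, glucocorticoids and dietary protein are the known controls of many of these genes, Tat being a textbook glucocorticoid target in liver.

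Livers came from male Apoe-deficient mice on the C57BL/6J background, which lack apolipoprotein E, have high plasma cholesterol and develop atherosclerosis. The treated mice (10 animals) ate a purified Western diet with 1% squalene, stated to equal 1 g/kg, and the controls (9 animals) ate the Western diet alone, with 0.15% cholesterol and 20% palm oil in both. Diets were given for 11 weeks, and all animals carried the Apoe deficiency. No wild type or standard diet group was analysed here. RNA of 2 or 3 livers was combined into each of 4 pools per diet, and a 2-colour array always carried a squalene pool together with a Western pool. With 6 arrays there were 4 such pool pairs (n = 4). Squalene was in the red dye (Cy5) in pairs 1 and 4 and in the green dye (Cy3) in pairs 2 and 3. Pairs 1 and 2 were hybridised on both slides and pairs 3 and 4 on slide 2 alone.

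All 12 hepatocyte markers examined, among them Alb, Ttr and Ahsg, were measured. Each array had 62976 spots, 3671 of them controls. Of the other spots, between 48.67% and 54.16% were well above background in a channel, with none saturated. All 50 members were well above background in every pool of both diets, with mean log2 intensities between 6.35 and 15.54. The precision is limited by the number of arrays, which gave 4 pool pairs. Levels below are log2 intensities, which compare pools for 1 probe and not probes with each other. Ratios are log2 of squalene over Western in a pair. Pool levels and pair ratios are listed in the order of pairs 1 to 4.

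No member passed the test of a diet difference in the fit across all features. At an adjusted p under 0.05 (limma, Benjamini-Hochberg over all 20658 features) the count of members was 0, against 0% of all features, and the adjusted p was 0.9999 for each of the 50. At an unadjusted p under 0.05 the count was also 0, where 2.47% of all features passed (1.05% higher and 1.42% lower with squalene), and the smallest unadjusted limma p of a member was 0.0542, for Hibadh. Mean ratios ran from -0.22 for Gldc to 0.16 for Hpd, and 38 of 50 lay within 0.1 of 0. The mean was above 0 in 36 members and below 0 in 14, so 72% were above 0, against 51.8% of all features. Their median ratio was 0.044, against 0.00285 for all features. Without pair 3 the fit's estimates for the members had a median of 0.0109, and 17 of the 50 had the other sign. Those estimates weight the 2 dye orientations equally, and pair 2 alone then had squalene in Cy3. Mccc1 alone had 1 sign in all 4 pairs, where 3.34% of all features were above 0 and 3.04% below 0 throughout. Squalene and Western pool levels overlapped for all 50, while the diets did not overlap in 0.387% of all features with squalene higher and 0.392% with squalene lower.

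The intervals show how large a difference these pools could have hidden. The 95% interval of the mean ratio held 0 for all 50 members, and reached a median of 0.169 to either side of the mean in the fit. It lay between -0.5 and 0.5 for 46 of them and reached from -0.75 to 1.08 for Tat. These intervals use the fit's error after its dye term, which takes up the gap between pairs 1 and 4 and pairs 2 and 3. That gap could also lie between the pools, so the count of 46 holds for the fit's intervals alone. An interval from the plain spread of the 4 ratios reached a median of 0.397 to either side and held 0 for 49, all but Mccc1. The count of members at an unadjusted p under 0.05 depended on which pairs entered. Without pair 2 it was 9 of 50, where 6.35% of all features passed, and in that fit pair 3 alone had squalene in Cy3 and pairs 1 and 4 alone gave the residual. The fit's estimate weights the 2 dye orientations equally, so with 3 pairs it is not the mean of the 3 ratios. Without pair 2 the estimate was 0.40 for Gpt2, 0.318 for Hpd, 0.314 for Arg1, 0.26 for Cps1, 0.259 for Asl and 0.218 for Dbt. It was -0.477 for Gldc, -0.413 for Hal and -0.316 for Amdhd1, and none of the 9 passed an adjusted p under 0.05 (limma). Without pair 3 the count was 1 of 50, Prodh at -0.294, where 4.2% of all features passed.

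**Figure D1:**
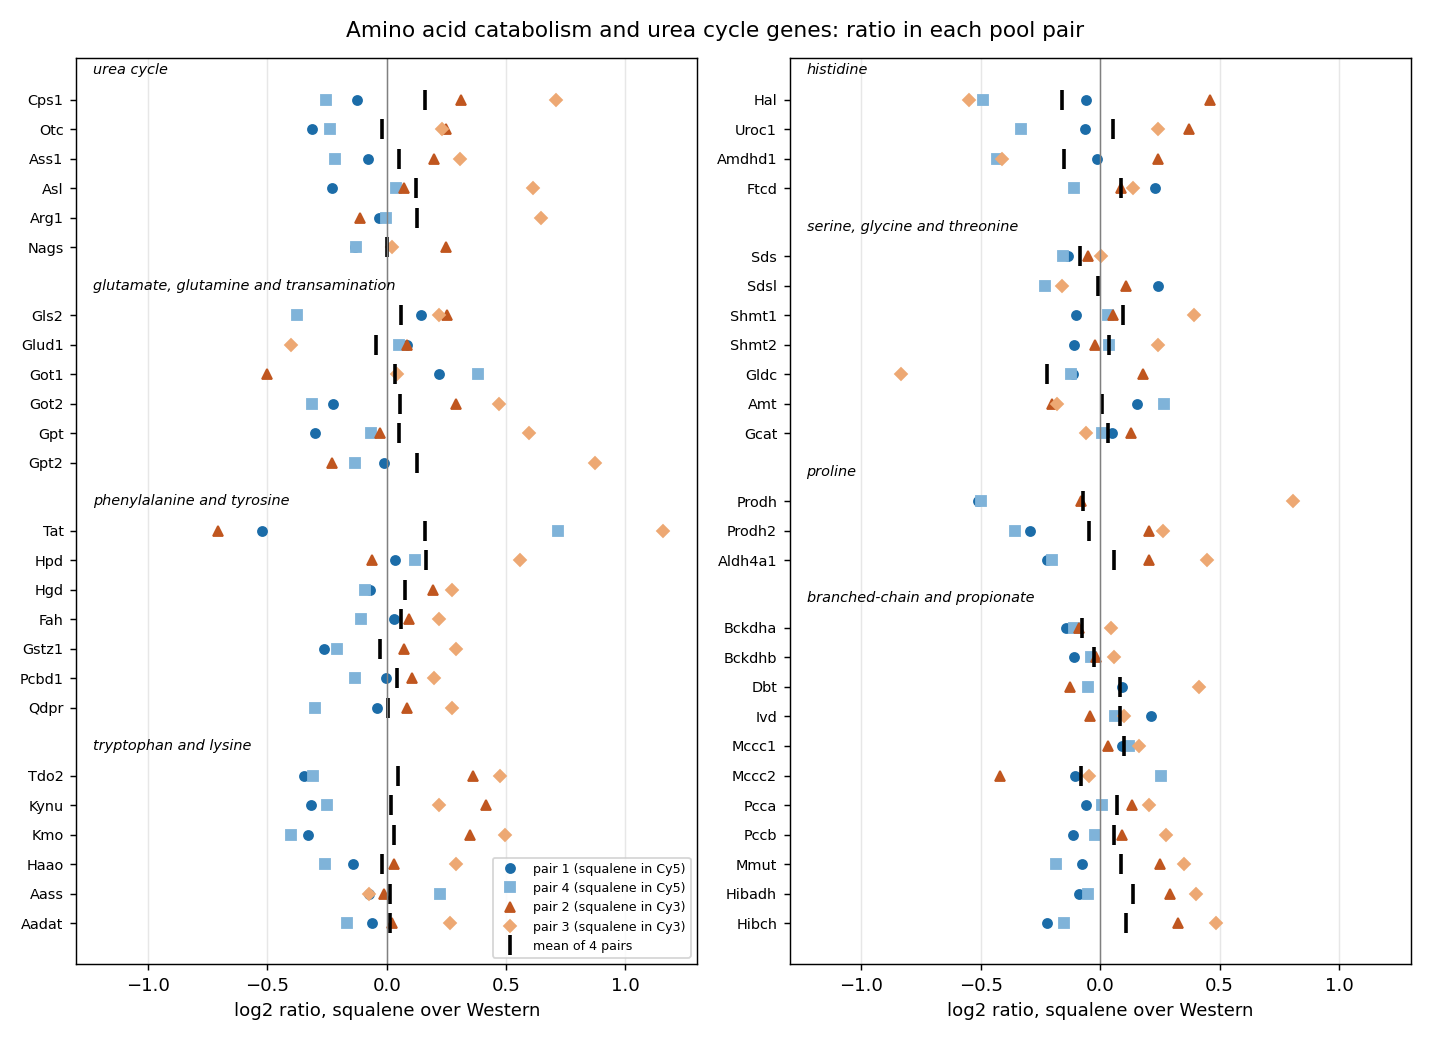
Log2 ratio of squalene over Western (horizontal axis) for the 50 measured genes, grouped by route, with 1 point per pool pair and a vertical bar at the mean of 4 pairs. Blue points (pairs 1 and 4) and orange points (pairs 2 and 3) have opposite dye orientations. Means lie between -0.22 and 0.16, and the points of most genes fall on both sides of 0.

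The urea cycle is described in full because it is the terminal route for the nitrogen of all the others. Cps1 (chromosome 1), the mitochondrial synthetase that makes carbamoyl phosphate from ammonia, had log2 intensities of 12.81, 13.12, 13.21 and 12.91 in the squalene pools, against 12.94, 12.81, 12.50 and 13.16 in the Western pools. The means were 13.01 ± 0.18 with squalene and 12.85 ± 0.28 without (SD, n = 4 each). Its ratios were -0.13, 0.31, 0.71 and -0.25. Squalene was the higher in pairs 2 and 3 and the lower in pairs 1 and 4, and the mean ratio of 0.16 ± 0.44 (SD, n = 4) had an unadjusted limma p of 0.114.

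Otc (chromosome X), the ornithine transcarbamylase that joins carbamoyl phosphate to ornithine, stood at 13.21, 13.72, 13.60 and 13.50 in the squalene pools and 13.52, 13.47, 13.37 and 13.74 in the Western pools. Its ratios of -0.31, 0.25, 0.23 and -0.24 split by pair as those of Cps1 did, and their mean was -0.018 ± 0.30. A second Otc probe gave a mean ratio of 0.12, so its probes differed in sign. Ass1 (chromosome 2), the synthase that brings in aspartate as the second nitrogen, read 15.52, 15.59, 15.57 and 15.39 in the squalene pools and 15.60, 15.40, 15.26 and 15.61 in the Western pools. With ratios of -0.079, 0.20, 0.31 and -0.22 it averaged 0.051 ± 0.24, and pairs 2 and 3 were again the ones above 0.

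Asl (chromosome 5), the lyase that releases arginine and fumarate, was measured at 12.58, 13.07, 13.31 and 13.01 in the squalene pools and 12.81, 13.00, 12.70 and 12.97 in the Western pools. Its ratios were -0.23, 0.07, 0.61 and 0.038, with a mean of 0.12 ± 0.35, and pair 3 alone was past 0.1 upward. Arg1 (chromosome 10), the arginase that releases urea, had 14.40, 14.51, 14.75 and 14.50 in the squalene pools and 14.43, 14.62, 14.10 and 14.51 in the Western pools. Its ratios were -0.03, -0.11, 0.65 and -0.0047 (mean 0.12 ± 0.35), so 3 pairs were below 0 and pair 3 was well above. For both enzymes the Western pool of pair 3 was the lowest Western pool and the squalene pool of pair 3 the highest squalene pool.

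Nags (chromosome 11), which makes the N-acetylglutamate that Cps1 needs for activity, read 10.30, 10.68, 10.60 and 10.58 in the squalene pools and 10.44, 10.43, 10.58 and 10.71 in the Western pools. Both diets averaged the same, 10.54 ± 0.16 and 10.54 ± 0.13, and the ratios of -0.13, 0.25, 0.021 and -0.13 gave a mean of 0.0018. For the 6 urea cycle genes together, 5 means were above 0 and the median ratio was 0.0873, with 95% intervals that ran from -0.06 to 0.38 for Cps1 and from -0.21 to 0.46 for Arg1. The median of the 6 was -0.129 in pair 1, 0.222 in pair 2, 0.459 in pair 3 and -0.174 in pair 4, each larger in size than the median of the means.

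**Figure D2:**
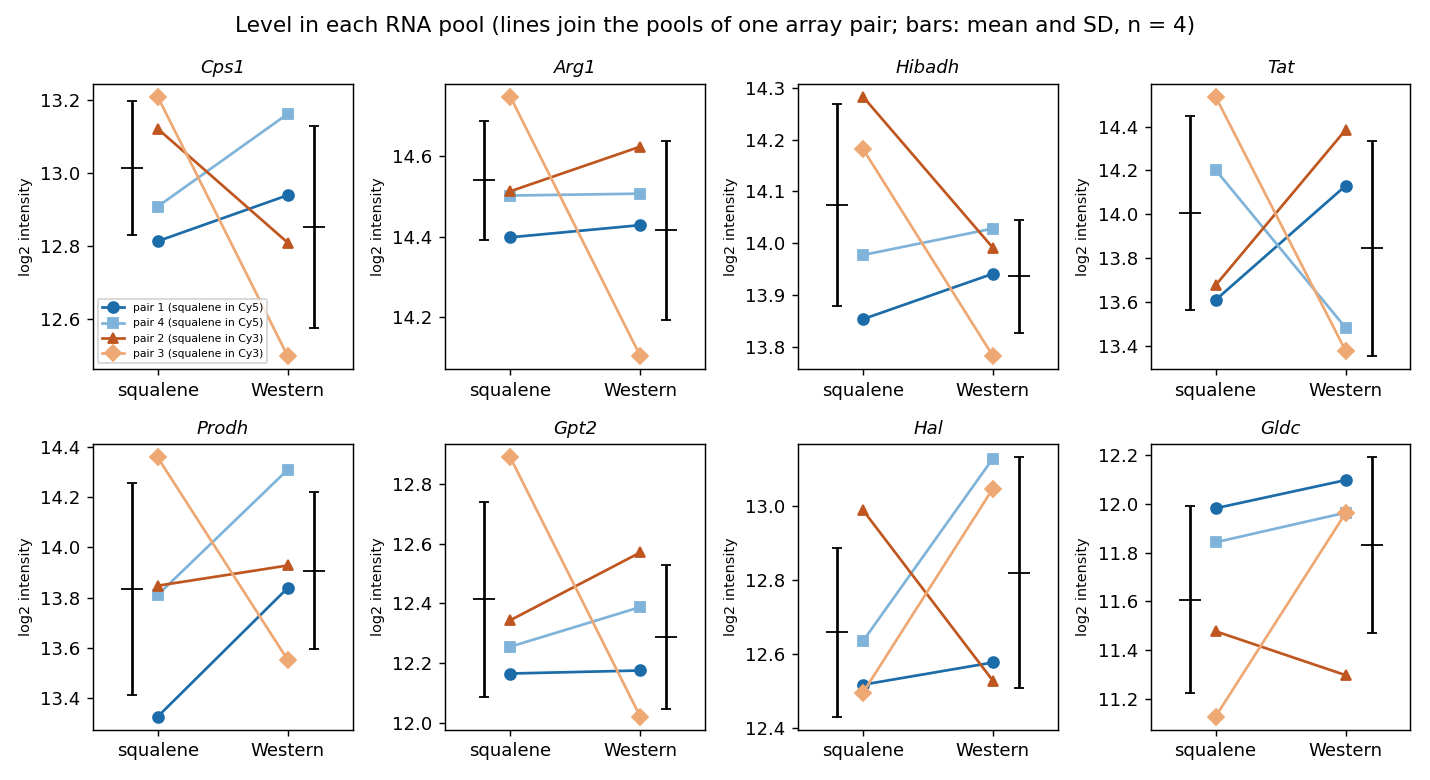
Log2 intensity (vertical axis, its range set for each panel) of 8 genes in the 4 squalene pools (left) and the 4 Western pools (right), with lines joining the pools of 1 pair and bars for mean and SD. The diets overlap in every panel. The line of pair 3 joins squalene 13.21 and Western 12.50 for Cps1, and squalene 14.54 and Western 13.38 for Tat.

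Among the glutamate, glutamine and transamination genes, 5 of 6 means were above 0 and none passed an unadjusted p under 0.05. Gls2, the liver glutaminase, averaged 0.06 ± 0.29, and Glud1, glutamate dehydrogenase, averaged -0.046 ± 0.24. The chosen Glud1 probe was above 0 in 3 pairs and -0.40 in pair 3. Its second probe had -0.16, 0.032, -0.31 and -0.18, below 0 in 3 pairs, and averaged -0.16. The cytosolic aspartate transaminase Got1 averaged 0.036 ± 0.38, with -0.50 in pair 2 and 0.38 in pair 4. Its mitochondrial counterpart Got2 averaged 0.056 ± 0.38, with pairs 2 and 3 above 0 and pairs 1 and 4 below. The alanine transaminases Gpt (cytosolic, 0.051 ± 0.38) and Gpt2 (mitochondrial, 0.13 ± 0.51) were below 0 in 3 pairs and at 0.60 and 0.87 in pair 3.

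The phenylalanine and tyrosine route held the member whose pair ratios were spread widest. Hpd, the dioxygenase that makes homogentisate, had log2 intensities of 14.83, 14.96, 15.23 and 15.15 in the squalene pools and 14.79, 15.02, 14.67 and 15.04 in the Western pools. Its ratios were 0.033, -0.06, 0.56 and 0.12, and the mean of 0.16 ± 0.27 (unadjusted limma p 0.204) was carried mainly by pair 3. Hgd, which opens the homogentisate ring, read 13.38, 13.64, 13.41 and 13.37 in the squalene pools and 13.45, 13.45, 13.14 and 13.46 in the Western pools. Its ratios of -0.068, 0.19, 0.27 and -0.09 averaged 0.078 ± 0.18, and the Western pool of pair 3 was the one that lay apart. Fah, the last enzyme of the route, averaged 0.059 ± 0.13, and Gstz1, the isomerase before it, averaged -0.026 ± 0.26. Pcbd1 and Qdpr, which regenerate the tetrahydrobiopterin used to hydroxylate aromatic amino acids, averaged 0.042 ± 0.14 and 0.0046 ± 0.24. Of the 7 genes measured here, all 7 had a ratio above 0 in pair 3.

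Tat, tyrosine aminotransferase, is the first enzyme of tyrosine breakdown and is described because its spread was the widest, a choice made after its values were seen, as with Prodh, Gpt2 and Hal. Its squalene pools had log2 intensities of 13.61, 13.68, 14.54 and 14.20 and its Western pools 14.13, 14.38, 13.38 and 13.48. The squalene pools of pairs 3 and 4 were high with their Western partners low, and the order was the opposite in pairs 1 and 2, so this split did not follow the dye. Its ratios were -0.52, -0.71, 1.16 and 0.72, with a mean of 0.16 ± 0.92 and a 95% interval of -0.75 to 1.08. Repeat arrays differed by 0.018 in pair 1 and -0.047 in pair 2 (slide 2 minus slide 1), and pairs 3 and 4 had none. Prodh, proline dehydrogenase, had -0.51, -0.081, 0.81 and -0.50 (SD 0.62), Gpt2 had -0.01, -0.23, 0.87 and -0.13 (SD 0.51), and Hal had -0.06, 0.46, -0.55 and -0.49 (SD 0.47). The median SD over the 50 members was 0.25, against 0.162 for all features and 0.187 for features with a mean log2 intensity over 12.

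The promoters of Tat and Hal, members of wide spread in different routes, are shown for their start-proximal sequence. They come from RefSeq on build GRCm38.p6 and cover the 250 bases before the annotated start, read 5′ to 3′ on the gene's strand. Capitals mark a match to any of 4 motifs, which were TATAAA on the gene's strand and TTGCNNAA (C/EBP), TGACG (core of the cAMP response element) and TGTTCT (an arm of the glucocorticoid response element) on both strands. Tat is at chr8:109990186-109990435 and Hal at chr10:93488518-93488767, both on the plus strand.
Tat: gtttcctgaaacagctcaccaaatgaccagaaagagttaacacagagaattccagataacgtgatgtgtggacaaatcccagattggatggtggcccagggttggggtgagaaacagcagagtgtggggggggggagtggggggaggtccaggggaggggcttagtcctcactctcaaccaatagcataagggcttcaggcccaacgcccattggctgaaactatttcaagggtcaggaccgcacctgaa
Hal: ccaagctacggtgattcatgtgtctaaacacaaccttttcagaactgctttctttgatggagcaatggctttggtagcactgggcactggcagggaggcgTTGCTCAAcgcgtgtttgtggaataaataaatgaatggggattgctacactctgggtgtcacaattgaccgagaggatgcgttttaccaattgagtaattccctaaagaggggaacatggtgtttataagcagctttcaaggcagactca
Tat had 0 matches in this window and Hal had 1, to the C/EBP motif. Prodh and Gpt2 had 0. Of the 51 members, 40 had a promoter in the table. TATAAA was present in 2 of 40 (5%, against 7.59% of all 32851 promoters), TTGCNNAA in 5 (12.5%, against 9.56%), TGACG in 5 (12.5%, against 17.8%) and TGTTCT in 4 (10%, against 16.1%). A member was counted if any of its promoters held the motif, whereas the share of all counts each promoter, so the units differ. These matches describe letters in the window and not sites in use.

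The tryptophan and lysine genes had small means and a marked split by pair. Tdo2, the dioxygenase that commits tryptophan to the kynurenine route, had ratios of -0.34, 0.36, 0.47 and -0.31, which averaged 0.046 ± 0.43. Kmo, kynurenine monooxygenase, had -0.33, 0.35, 0.49 and -0.40 and averaged 0.029 ± 0.46, and Kynu, kynureninase, had -0.32, 0.41, 0.22 and -0.25 and averaged 0.017 ± 0.36. All 3 were below 0 in pairs 1 and 4 and above 0 in pairs 2 and 3. Haao, which opens the ring of hydroxyanthranilate, averaged -0.019 ± 0.24, and Aadat, an aminotransferase for kynurenine and aminoadipate, averaged 0.015 ± 0.18. Aass, the bifunctional enzyme that starts lysine breakdown, averaged 0.015 ± 0.14. Second probes of Kmo and Kynu averaged 0.12 and 0.066.

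Histidine breakdown begins with Hal, the ammonia lyase that forms urocanate. The Hal squalene pools had log2 intensities of 12.52, 12.99, 12.50 and 12.63 and the Western pools 12.58, 12.53, 13.05 and 13.13, and the Western pools of pairs 3 and 4 were the highest of the 8. Its mean ratio was -0.16 ± 0.47. Amdhd1, which acts after urocanase, had -0.012, 0.24, -0.41 and -0.43 and averaged -0.15 ± 0.33, with the signs of Hal in all 4 pairs. Uroc1, urocanase, averaged 0.054 ± 0.32, and Ftcd, which passes the formimino group to tetrahydrofolate, averaged 0.087 ± 0.14. The enzymes of this 1 route thus had means of both signs, 2 above and 2 below 0.

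In the serine, glycine and threonine group, 4 means were above 0 and 3 below. Sds, the serine dehydratase that makes pyruvate, had 11.87, 12.15, 12.27 and 11.97 in the squalene pools and 12.01, 12.20, 12.26 and 12.13 in the Western pools. Its ratios of -0.14, -0.053, 0.0045 and -0.16 were among the most uniform, with a mean of -0.086 ± 0.075 and an unadjusted limma p of 0.168. Gldc, the decarboxylase of the glycine cleavage system, had the lowest mean of all members. Its squalene pools read 11.98, 11.48, 11.13 and 11.84 and its Western pools 12.10, 11.30, 11.96 and 11.96, with the squalene pool of pair 3 the lowest of the 8 and the Western pool of pair 2 well below the other Western pools. Its ratios were -0.12, 0.18, -0.84 and -0.12, with a mean of -0.22 ± 0.43 and an interval of -0.65 to 0.21. Without pair 3 the fit's estimate for Gldc was 0.0308. It gave equal weight to the mean of pairs 1 and 4 and to pair 2, the 1 ratio above 0.

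Amt, the aminomethyltransferase of the same cleavage system, averaged 0.0098 ± 0.24. The serine hydroxymethyltransferases Shmt1 (cytosolic) and Shmt2 (mitochondrial) averaged 0.094 ± 0.21 and 0.037 ± 0.15. Sdsl, a serine dehydratase-like protein, averaged -0.0099 ± 0.22, and Gcat, which cleaves the product of threonine dehydrogenase, averaged 0.032 ± 0.078. None of these 5 genes reached 0.5 in any pair in either direction.

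Of the 3 proline genes, Prodh averaged -0.072 ± 0.62 with pool levels of 13.32, 13.85, 14.36 and 13.81 with squalene and 13.84, 13.93, 13.55 and 14.31 without. Prodh2, which oxidises hydroxyproline, averaged -0.045 ± 0.32. Aldh4a1, the dehydrogenase that turns the product of both routes into glutamate or its hydroxylated form, averaged 0.057 ± 0.33. Each of the 3 had pairs 1 and 4 below 0 and pair 3 above 0.

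The branched-chain and propionate genes included 7 of the 12 members with the smallest p. Hibadh, which oxidises hydroxyisobutyrate in valine breakdown, had log2 intensities of 13.85, 14.28, 14.18 and 13.98 in the squalene pools and 13.94, 13.99, 13.78 and 14.03 in the Western pools. Its ratios of -0.088, 0.29, 0.40 and -0.051 gave a mean of 0.14 ± 0.24 with an SE of 0.055 and an unadjusted limma p of 0.0542. The SE is far below the SD because the dye term takes up the difference between pairs 1 and 4, both below 0, and pairs 2 and 3, both above. Hibch, the hydrolase acting just before it, had 11.68, 12.03, 12.12 and 11.77 in the squalene pools and 11.90, 11.70, 11.64 and 11.92 in the Western pools. Its ratios of -0.22, 0.32, 0.49 and -0.15 split in the same way, and the mean was 0.11 ± 0.35.

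Mccc1, a subunit of the methylcrotonyl-CoA carboxylase of leucine breakdown, was the gene above 0 in all pairs. It read 11.03, 11.09, 11.20 and 11.20 in the squalene pools and 10.94, 11.06, 11.03 and 11.08 in the Western pools, which overlapped. Its ratios were 0.09, 0.032, 0.16 and 0.12, the mean was 0.10 ± 0.056, and the unadjusted limma p was 0.13. It no longer had 1 sign under median centring, with the deposited table or on slide 2 alone. A second Mccc1 probe averaged 0.13 but was below 0 in pairs 1 and 4, and the partner subunit Mccc2 averaged -0.08 ± 0.28. Ivd, which acts before that carboxylase, had 11.95, 12.01, 12.03 and 12.00 in the squalene pools and 11.74, 12.05, 11.93 and 11.94 in the Western pools. Its ratios were 0.21, -0.042, 0.10 and 0.063, with a mean of 0.084 ± 0.10, and 3 of 4 pairs were above 0.

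The propionate enzymes come after valine and isoleucine breakdown. Mmut, methylmalonyl-CoA mutase, had 12.36, 12.64, 12.63 and 12.40 in the squalene pools and 12.44, 12.39, 12.28 and 12.58 in the Western pools, with ratios of -0.074, 0.25, 0.35 and -0.18 (mean 0.086 ± 0.26). Pcca, a subunit of propionyl-CoA carboxylase, had 10.22, 10.61, 10.51 and 10.51 in the squalene pools and 10.28, 10.48, 10.31 and 10.50 in the Western pools, with ratios of -0.059, 0.13, 0.20 and 0.0088 (mean 0.072 ± 0.12). Both had their highest ratio in pair 3 and their lowest in pair 1 or 4, and the other carboxylase subunit, Pccb, averaged 0.057 ± 0.17.

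The branched-chain keto acid dehydrogenase commits all 3 branched-chain amino acids to oxidation. Its subunit gene Bckdha had 13.59, 13.71, 13.84 and 13.94 in the squalene pools and 13.74, 13.80, 13.80 and 14.05 in the Western pools. The ratios of -0.14, -0.09, 0.045 and -0.11 averaged -0.075 ± 0.083, and those of Bckdhb averaged -0.027 ± 0.07. Dbt, the transacylase of the complex, averaged 0.083 ± 0.24. The SDs of Bckdha and Bckdhb were among the 5 under 0.1, with Mccc1, Sds and Gcat, so the narrow genes sat in routes other than the urea cycle.

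The ratios of the members shifted together from pair to pair, and in the loess-normalised ratios the shift followed the dye orientation. Their median was -0.0834 in pair 1, 0.0897 in pair 2, 0.253 in pair 3 and -0.126 in pair 4, where the medians of all features were between -0.0118 and 0.00939. Members above 0 numbered 12, 34, 41 and 14 in pairs 1 to 4. Turned to red over green, 21 of 50 members (42%) were below 0 in all 4 pairs, against 12.6% of all features and 21.1% of features with a mean log2 intensity over 12. They were 4 urea cycle genes (Cps1, Otc, Ass1 and Nags), Got2, Hgd, Gstz1, Pcbd1, Qdpr, Tdo2, Kynu, Kmo, Haao, Aadat, Uroc1, Prodh2, Aldh4a1, Pccb, Mmut, Hibadh and Hibch.

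The red over green ratios of Otc were -0.31, -0.25, -0.23 and -0.24, and those of Kmo were -0.33, -0.35, -0.49 and -0.40. The second Otc probe was below 0 in pairs 1 to 3 but at 0.12 in pair 4. The second Kmo probe was below 0 in all 4 pairs. Amt alone was above 0 throughout, at 0.15, 0.20, 0.18 and 0.27, where 15.2% of all features were. At an adjusted p under 0.05 the dye term of the fit called 0 members and 0% of all features, the smallest adjusted p of a member being 0.118 (limma). Each orientation held 2 squalene pools and 2 Western pools of its own, so a dye effect and a difference between those pools cannot be told apart. Hepatocyte markers ran the other way, with medians of 0.519, -0.381, -0.482 and 0.342, and their summed intensity ranged from 1585832 to 2239796 over the squalene pools and from 1529293 to 2310637 over the Western pools. Their part in the members' split was not tested.

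**Figure D3:**
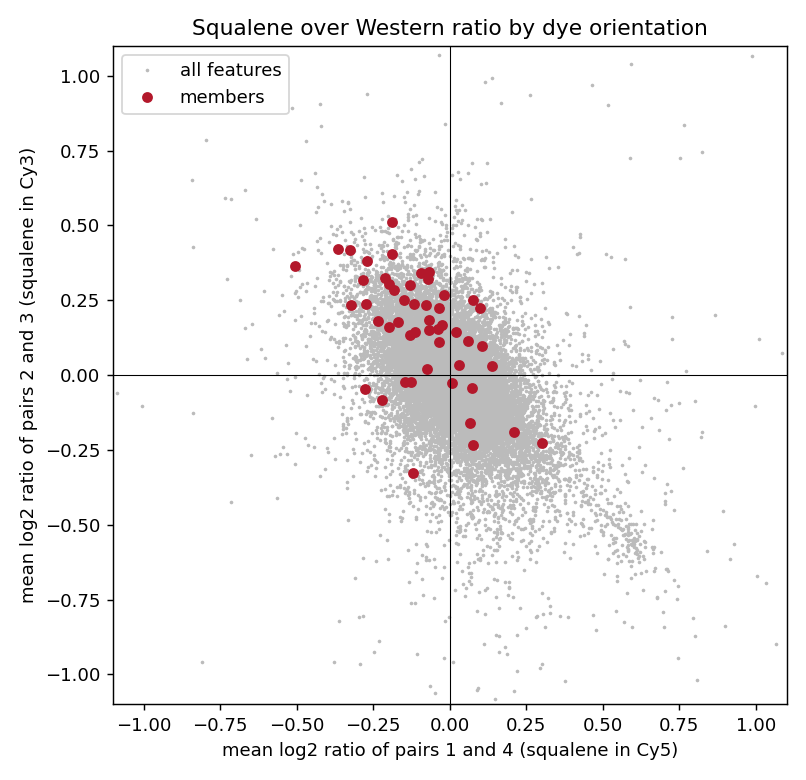
Mean log2 ratio of squalene over Western in pairs 2 and 3 (squalene in Cy3, vertical axis) against that in pairs 1 and 4 (squalene in Cy5, horizontal axis), for all features in grey and the 50 members in red. The axes stop short of the most extreme features. Most members lie in the upper left, where 21 had every pair on that side.

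The split by orientation depended on how the arrays were normalised. The scanner software's processed signals gave 24 of 50 members below 0 in red over green in all pairs (48%, against 14.2% of all features), and loess without background correction gave 21 (42%, against 15.2%). With median centring in place of loess the count was 1 (2%, against 1.91%). In that setting the medians of all kept features were 0.324, -0.22, -0.104 and 0.0912, so the members are given relative to them, at 0.076, -0.158, 0.19 and 0.0298. The authors' deposited table, centred on each array's median, gave 30 members (60%), where 51.1% of all features did the same. Relative to all features its medians were -0.118, -0.013, 0.432 and -0.133. The member median in pair 3 was above that of all features under each of the 5 normalisations, by 0.19 to 0.432, while the sign in pairs 1, 2 and 4 changed with at least 1 of them.

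**Figure D4:**
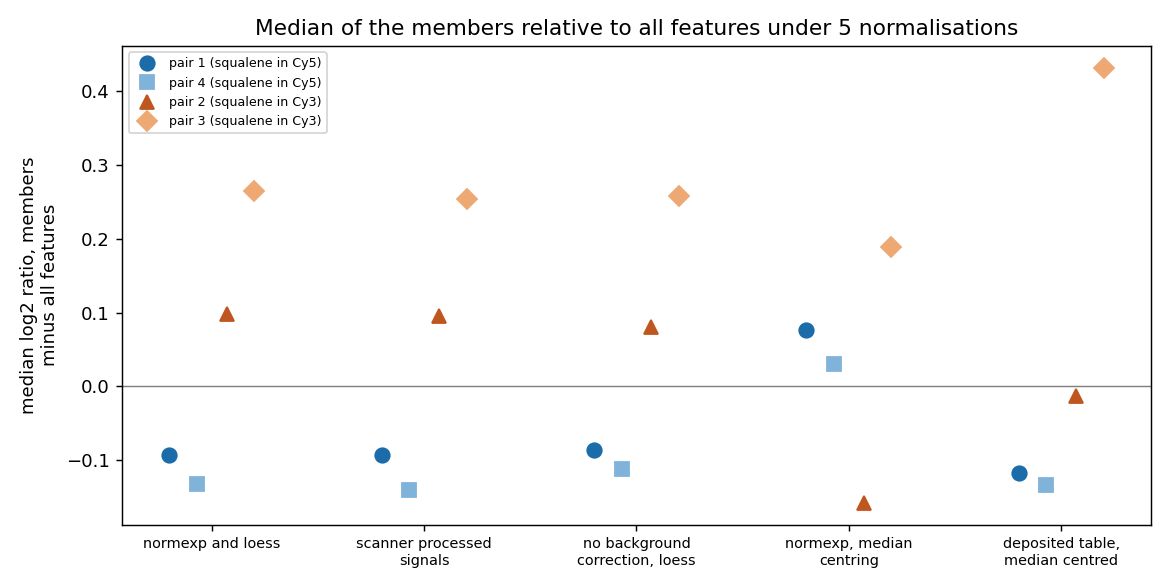
Median log2 ratio of the 50 members minus that of all features (vertical axis) in each pool pair under 5 normalisations (horizontal axis), with 1 point per pair. Pair 3 is above 0 throughout, from 0.19 to 0.432, and the signs of the other pairs are turned under median centring.

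Pair 3, which was hybridised on a single array, stood apart from the others for these genes. There, 10 of 50 members (20%) had a ratio past 0.5 in either direction, against 6.57% of all features and 10% of the features with a mean log2 intensity over 12. Pairs 1, 2 and 4 had 2, 2 and 1 (4%, 4% and 2%), against 2.84%, 4% and 3.39% of all features. Among features with a mean log2 intensity over 12 the shares in these pairs were 4.4%, 8.23% and 6.33%. Of the 10, 8 were above 0 (Cps1, Asl, Arg1, Gpt, Gpt2, Tat, Hpd and Prodh) and 2 below (Hal and Gldc). For 28 members (56%) pair 3 was the farthest from the gene's own median over the pairs, against 30.7% of all features. Its Western pool was the lowest of the 4 Western pools in 29 of 50 members, and its squalene pool the highest of the squalene pools in 20. Other pools stood out too, the squalene pool of pair 1 being the lowest of its diet in 32 and the Western pool of pair 4 the highest of its diet in 32. The counts of lowest and highest pools were made for the members alone, with no share over all features to set beside them.

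Markers of other cells differed between the pools too, and in bulk RNA fewer cells of a type and less RNA per cell cannot be told apart. Of 16 macrophage markers, 15 were measured and 0 of them were above 0 in pair 3, with a median of -0.596 there and 0.25, 0.058 and -0.403 in pairs 1, 2 and 4. Their summed intensity was 74874 to 140882 in the squalene pools and 85857 to 130431 in the Western pools, and 3 of 15 were lower with squalene at an unadjusted p under 0.05, against 1.42% of all features. Of 10 red cell markers, 7 were measured, 4 of them lower at that threshold, with medians of 0.0166, -0.551, -1.6 and 0.128 in pairs 1 to 4. Their sums were 78927 to 168871 in the squalene pools and 111293 to 258465 in the Western pools. All 13 stellate cell and fibroblast markers were measured, 5 of them lower at that threshold, with medians of 0.179, -0.161, -0.279 and 0.122. Their sums were 26937 to 39504 in the squalene pools and 34410 to 40338 in the Western pools. The red cell and stellate medians were above 0 in pairs 1 and 4 and below 0 in pairs 2 and 3, the opposite of the members. Their part in the members' ratios was not tested.

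Genes that respond to glucagon, glucocorticoids or fasting and are not members differed widely between pairs. Of these 19, all measured, 11 were above 0 in pair 3, where 47.8% of all features were. Their median was 0.146 there and -0.101, -0.0654 and 0.126 in pairs 1, 2 and 4. At an unadjusted p under 0.05 (limma), 0 were higher with squalene and 1 was lower, against 1.05% and 1.42% of all features. The lower 1 was Pdk4, with ratios of 0.33, -0.85, -1.79 and 0.035 and a mean of -0.57 ± 0.95. It was above 0 in pairs 1 and 4 and below 0 in pairs 2 and 3. Pair 3 ratios of the 19 ran from -2.98 for Fgf21, a fasting-induced hormone, to 1.43 for Tsc22d3, a glucocorticoid-induced gene. These genes were named after their values were seen. The 4 ratios were 1.68, 0.57, -2.98 and -0.67 for Fgf21 and -0.40, 0.38, 1.43 and -0.45 for Tsc22d3. Their part in the members' ratios was not tested. Periportal markers that are not members (6 measured) had medians of 0.114, 0.288, -0.00253 and -0.145, and the 13 pericentral markers -0.264, -0.187, 0.106 and -0.0284.

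**Figure D5:**
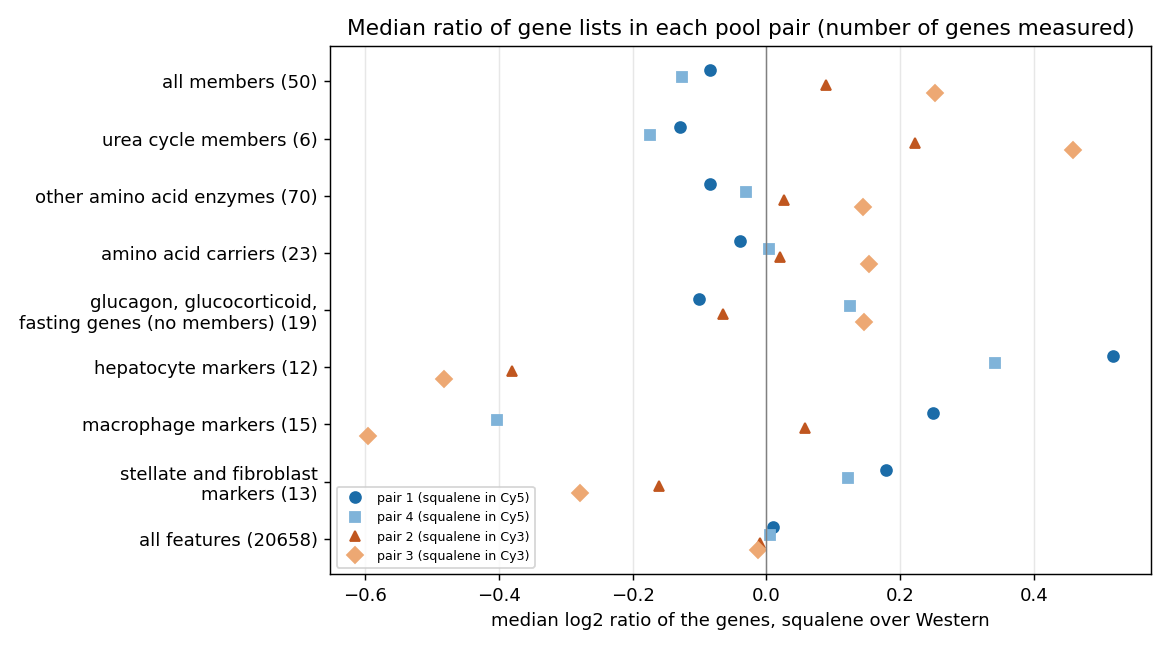
Median log2 ratio of squalene over Western (horizontal axis) of gene lists in each pool pair, with the number of measured genes beside each list. The members and the urea cycle genes lie above 0 in pairs 2 and 3 and below 0 in pairs 1 and 4, and the hepatocyte markers lie on the opposite sides.

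The other enzymes of amino acid metabolism, a list of 79 of which 70 were measured, had 37 means above 0 and 33 below. Of the 70, 0 passed an adjusted p under 0.05 and 1 an unadjusted p under 0.05 (limma, against 2.47% of all features). That gene was Sat1, the acetyltransferase of polyamine breakdown, with ratios of 0.23, -0.63, -0.62 and 0.022 and a mean of -0.25 ± 0.44. Next by p came Glul, the glutamine synthetase of pericentral hepatocytes, which averaged -0.22 ± 0.18 and was below 0 in all 4 pairs at -0.45, -0.24, -0.15 and -0.028. Arg2, the mitochondrial arginase, averaged -0.15 ± 0.11, Ahcy, which hydrolyses S-adenosylhomocysteine, 0.15 ± 0.26, and Bcat2, the mitochondrial branched-chain transaminase, 0.11 ± 0.062 with all 4 pairs above 0. Of the 70, 1 was below 0 in all 4 pairs (Glul) and 1 above (Bcat2), against 3.04% and 3.34% of all features. The median of the 70 was 0.00476, with -0.0835, 0.0259, 0.145 and -0.03 in pairs 1 to 4.

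Of 24 carriers of amino acids and urea cycle intermediates, 23 were measured, 16 with a mean above 0 and 7 below, and 0 passed an unadjusted p under 0.05. Smallest by p was Slc25a44, a mitochondrial carrier of branched-chain amino acids, at 0.16 ± 0.23. Its ratios were 0.021, 0.11, 0.50 and 0.0048. It was the 1 carrier of 23 above 0 in all 4 pairs, where 3.34% of all features were. Slc25a15, the mitochondrial ornithine carrier of the urea cycle, averaged 0.14 ± 0.21.

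Pairs 1 and 2 were hybridised again, which gives the error of the measurement and not that of the pools. The absolute difference between the repeat arrays had a median of 0.0472 in pair 1 and 0.0508 in pair 2, with a largest value of 0.211 and 0.166. In each of these pairs 44 of 50 members kept their sign on both slides. The median of the members was -0.0878 on slide 1 and -0.0753 on slide 2 in pair 1, and 0.0837 and 0.103 in pair 2. Pairs 3 and 4 had no repeat. Of the 50 members, 42 had 1 probe above the filter and 8 had more, and the further probe of Ass1, Qdpr and Shmt1 averaged 0.033, 0.013 and 0.042.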

How the data were processed

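Hepatic RNA of squalene and Western pools was measured on 6 two-colour arrays. Spot and background intensity were deposited by the authors as scanner output, read with version 10.7.3.1 of Agilent Feature Extraction according to the file headers, which name an older genome build. The log10 column of that deposited output, red over green, was read as a check only. The scanner's marks for control, outlier and background spots are its own, per the file headers. The authors' deposited values, treated as a score, equalled log10 of squalene over Western of the raw median signals within 0.001 for 99.93% to 99.94% of spots. The medians were 0.254 and 0.27 (pair 1), -0.217 and -0.257 (pair 2), -0.27 (pair 3) and 0.259 (pair 4), and 2 cells in each column of pair 1 were left out as too large. Its processing is not stated in the labels.

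With limma (version 3.58.1, R 4.3.3, files read by data.table version 1.17.8), the median signals went through normexp (offset 50) and then loess within arrays, with controls at weight 0 and outlier spots left out. Repeat arrays were averaged, giving 4 pairs. Probes well above background in at least 3 of 4 pairs in either diet were kept (26854 of 55681), with the brightest for each gene. Accessions were named through RefSeq (GRCm38.p6), 26762 probes receiving a symbol. lmFit and eBayes fitted the squalene effect and a dye intercept, two-sided, and p-values were adjusted by Benjamini-Hochberg over the 20658 features. Degrees of freedom were 2 residual and 3.04 prior. Pool levels are log2 intensity per channel after loess and Aquantile. The fit was tried on simulated data whose changes were larger than any member's mean and whose errors were independent between features and pairs. That trial does not bear on differences as small as those of the members. The pools are separate samples per the labels, each of 2 or 3 animals, and the labels do not assign animals to pools.

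The members and lists were chosen with earlier results of these data known. Full values were given for the urea cycle genes, the 12 members with the smallest p and any member whose mean fold passed a set size, which none did. Per-pair values of other members were chosen after they were seen. Alternatives covered signal correction, loess, the dim-probe filter, the dye intercept, slides, the probe rule, the variance prior and the pairs used. Counting red over green was added after the data were seen.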

Additional observations from a re-analysis of the deposited data

Results flagged for a closer look

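Within each diet's 4 pools and within the 4 pair ratios, 1 value of a member sometimes lay far from the other 3, its gap to the nearest taking up most of the whole range (Dixon's test, 95% level). This held in 5 of 150 groups of 4, and chance gives about 1 in 20. For Arg1, arginase, the log2 ratio of 0.65 in pair 3 lay above the other 3. For Glud1, glutamate dehydrogenase, the ratio of -0.40 in pair 3 lay below the other 3. Its second probe, to which the rule was not applied, had -0.16, 0.032, -0.31 and -0.18 in pairs 1 to 4. The Western pool of pair 3 was the one apart for Hgd, homogentisate dioxygenase, at a log2 intensity of 13.14. It was also the one apart for Aadat, the aminoadipate aminotransferase, at 6.17. Aadat was the dimmest member, with a mean log2 intensity of 6.35. For Gldc, of the glycine cleavage system, the Western pool of pair 2 lay below the other Western pools at 11.30. Of these 5 values, 4 belonged to pair 3. No cause was tested.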

How the results depend on the processing

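In each of 15 other settings, 0 members passed an adjusted p under 0.05 (limma). The count of all features at that level was 0, with the exceptions of 8 with the authors' deposited table, 2 with median centring and 3 with the slide as a block, and it was 0 without each replicate in turn. At an unadjusted p under 0.05, features numbered 510, against 201 with median centring, 181 with the deposited table, 935 with no filter on dim probes, 254 with no dye intercept and 6 with a trended, robust prior. Leaving out 1 replicate gave 364 to 1311. Members at an unadjusted p under 0.05 numbered 1 (Hibadh) with no filter, with slide 2 arrays alone or with the mean over probes, and 0 to 9 without 1 replicate, the 9 being without pair 2. Members of 1 sign in all pairs numbered 0 with median centring, the deposited table or slide 2 alone, where Mccc1 was the member lost, and 4 to 10 over the 3 pairs left when 1 was omitted. The median of the fit's estimates for the members stayed between 0.0109 (without pair 3) and 0.0769 (without pair 2). Members with red over green below 0 in every pair numbered 21, and 1 with median centring. The cause of these shifts was not tested. Signs of the fit's estimate held in all 15 settings for 20 members and changed in at least 1 for 30. Every fit was paired, since a ratio is taken within an array between the squalene pool and the Western pool that share it. The 95% intervals reached a median of 0.169 to either side in the fit and 0.397 from the plain spread of 4 pairs.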
